A study of Mus musculus with 6 samples.

Results

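The cardiac stress program was examined through 10 genes in the left ventricles of 3 wild-type (WT) and 3 Glut1-TG mice. The set holds the natriuretic peptides Nppa and Nppb, 3 other genes that respond to load or calcineurin (Acta1, Ankrd1 and Rcan1), and 5 genes tied to the atria or to their development (Sln, Mybphl, Bmp10, Tbx5 and Nr2f2). They were chosen by name, out of 18193 genes with a probe set assigned to 1 gene symbol, and every such probe set was taken, 19 in all. Both groups were male FVB mice of 11 to 12 weeks, and 1 array was made from each heart. Glut1-TG mice carry a human Glut1 transgene, a glucose transporter that does not need insulin, under the alpha-myosin heavy chain promoter, so that it is expressed in cardiomyocytes. WT mice were of the same strain. The labels name no operation or drug for either group, and all mice ate standard chow. The values are signal intensities in arbitrary units on a linear scale, which the authors set so that the trimmed mean of each array is 500, and they compare 1 probe set between arrays but not different genes. Differences are given as the log2 fold change of Glut1-TG over WT, called the log2 ratio here, with its standard error (SE) from the fit.

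In mouse development the ventricle expresses natriuretic peptides and skeletal alpha-actin and loses much of both after birth. Pressure load, stretch and neurohormones switch them on again, and their transcripts are therefore used as markers of hypertrophy. Atrial muscle keeps Nppa, Sln, Mybphl and Bmp10 throughout life, which makes the same list a reading of atrial identity. The comparison asks whether a ventricle with raised glucose uptake, with no other stress named in the labels, carries that program.

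None of the 8 members with enough signal to be tested passed the test between Glut1-TG and WT hearts, and the intervals given with each gene show what sizes of change these arrays leave. The test was limma with an intensity trend and Benjamini-Hochberg adjustment over 13178 genes at 0.05, and 0 members were higher and 0 lower. Over all genes tested 0.258% were higher, 0.599% were lower and 0.857% were called in either direction, and 0 of 8 is close to those shares. At an unadjusted limma p under 0.05 the count was 1 of 8 (Acta1, higher), where 11.3% of all genes passed, 5.47% higher and 5.81% lower. The study's thresholds, which join a minimum fold to an unadjusted p by the methods' t-test, called 0 of the 8 members and 5.86% of all genes, 3.21% higher and 2.65% lower. Over all 34945 probe sets, fitted with no limit on signal, 0.243% passed, and 0 of the 19 of the members did. The median log2 ratio of the 8 members was -0.08, beside 0.02 over all genes tested, and it was 0.08 with every array centred on its cardiomyocyte markers, a scaling that moved the median of all genes by 0.16. The median size of the change without its sign was 0.15 for the members and 0.18 for all genes. Sln and Mybphl had mean signals under 115, the limit below which probe sets were left out of the test, and are described apart.

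**Figure D1:**
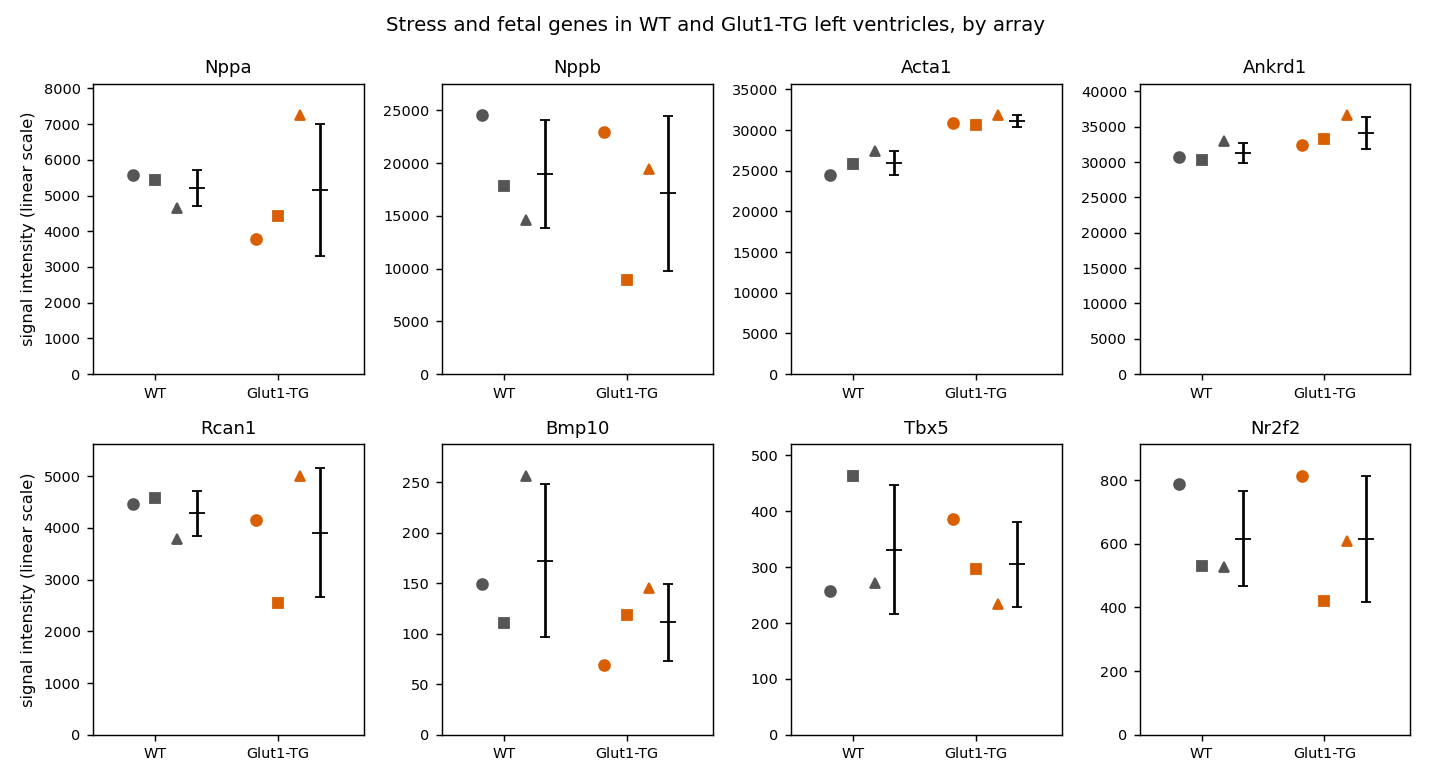
Signal intensity on a linear scale from 0 (vertical axis) of the 8 tested genes in 3 WT (grey) and 3 Glut1-TG (orange) arrays, with circles, squares and triangles for replicates 1, 2 and 3 and black bars for the mean and SD. The 3 Glut1-TG points lie above the 3 WT points for Acta1 alone, and Glut1-TG replicate 2 is the lowest point for Nppb, Rcan1 and Nr2f2.

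The stretches of DNA just before the listed start sites of Nppa, Acta1 and Ankrd1 are shown because load and hypertrophic stimuli are read through them. They are 250 bases long, run 5′ to 3′ on the strand of the gene, come from the RefSeq promoter table (build GRCm38.p6), and have 4 kinds of short motif in capitals. The CArG box, taken as CCWWWWWWGG with W for A or T, is bound by serum response factor. The M-CAT element CATTCC is bound by TEAD factors and GATAA by GATA factors, and the last motif is the TATAAA box. Each was searched on both strands as an exact match, and sites that depart from these letters were not counted. No 2 of the marked motifs overlap. Nppa lies at chr4:148000472-148000721 on the plus strand, Acta1 at chr8:123894776-123895025 on the minus strand and Ankrd1 at chr19:36119845-36120094 on the minus strand.
Nppa: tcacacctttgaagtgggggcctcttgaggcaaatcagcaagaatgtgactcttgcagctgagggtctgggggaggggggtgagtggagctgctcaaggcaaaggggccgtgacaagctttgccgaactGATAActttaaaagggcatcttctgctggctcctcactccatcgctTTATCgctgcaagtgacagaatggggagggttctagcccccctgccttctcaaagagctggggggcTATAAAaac
Acta1: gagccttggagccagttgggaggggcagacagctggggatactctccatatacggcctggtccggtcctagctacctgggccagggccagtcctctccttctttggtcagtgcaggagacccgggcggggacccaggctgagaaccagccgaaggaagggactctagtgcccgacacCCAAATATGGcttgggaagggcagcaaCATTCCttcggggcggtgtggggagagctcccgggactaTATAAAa
Ankrd1: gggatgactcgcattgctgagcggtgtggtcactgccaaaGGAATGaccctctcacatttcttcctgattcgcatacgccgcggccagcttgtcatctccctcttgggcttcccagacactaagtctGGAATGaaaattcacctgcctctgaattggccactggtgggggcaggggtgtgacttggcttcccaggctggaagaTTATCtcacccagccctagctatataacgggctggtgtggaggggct

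The Nppa stretch held 2 GATAA motifs and a TATAAA box. Acta1 held 1 CArG box, 1 M-CAT element and a TATAAA box, and Ankrd1 held 2 M-CAT elements and 1 GATAA motif. The Nppb window held 1 M-CAT element, 2 GATAA motifs and a TATAAA box. The TATAAA box lay 9 to 4 bases before the listed start of Nppa, 7 to 2 before that of Acta1 and 31 to 26 before that of Nppb. Whether the listed starts are those used in these hearts was not tested. Among 32851 promoter windows of the same length in the table, 1.47% held a CArG box, 12.6% an M-CAT element, 22.6% a GATAA motif and 12.4% a TATAAA box. Windows were listed for 8 of the 10 members, all but Sln and Tbx5. Those of Rcan1 and Nr2f2 held none of the 4 motifs, Mybphl held 1 GATAA motif and Bmp10 held 2. These are exact matches of letters, so a motif that was not found does not show that its factor has no site there. They say nothing of binding in these hearts.

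Nppa encodes atrial natriuretic peptide, a hormone that lowers blood volume and pressure and the most widely used transcript marker of ventricular hypertrophy. Its signal was 5577, 5436 and 4639 in the WT arrays and 3783, 4416 and 7262 in the Glut1-TG arrays. The lowest 2 values and the highest value all came from Glut1-TG hearts, and the WT values lay between them. The mean was 5217 ± 506 (SD, n = 3) in WT and 5154 ± 1853 (SD, n = 3) in the transgenic hearts. The log2 ratio was -0.07 (SE 0.20, adjusted p = 0.93 from limma), a fold of 0.95 with a 95% confidence interval of 0.70 to 1.30. Its sign turned without 1 array: the log2 ratio was 0.12 without Glut1-TG replicate 1, 0.01 without Glut1-TG replicate 2 and -0.35 without Glut1-TG replicate 3.

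Nppb, which encodes brain natriuretic peptide, is the neighbour of Nppa on chromosome 4, with 13516 bases between the end of Nppb and the start of Nppa. Its signal was 24574, 17800 and 14574 in WT and 22975, 8901 and 19478 in Glut1-TG hearts. Glut1-TG replicate 2 stood below the other 5 arrays, and the groups overlapped. The mean was 18983 ± 5104 (SD, n = 3) in WT and 17118 ± 7328 (SD, n = 3) in the transgenic hearts, a log2 ratio of -0.23 (SE 0.31, adjusted p = 0.83). The 95% confidence interval of the fold ran from 0.53 to 1.39. Without Glut1-TG replicate 2 the log2 ratio was 0.19.

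The genes that process, receive and transmit the natriuretic peptides were also without a call. Of 15 such genes 13 were tested, 0 rose and 0 fell, and their median log2 ratio was 0.0014. Among them, Pde5a, the cyclic GMP phosphodiesterase, and Furin, a protease that cleaves the BNP precursor, had the lowest p. Pde5a had signals of 169, 146 and 101 in WT and 241, 180 and 261 in Glut1-TG hearts (log2 ratio 0.73, SE 0.35, adjusted p = 0.48). Its groups did not overlap, which held for 17.4% of all genes tested. Furin had 0.23 (SE 0.12, adjusted p = 0.50). Corin, the protease of cardiomyocytes that activates the ANP precursor and named here after its values were seen, had 5763, 4499 and 2937 in WT and 3738, 4375 and 4263 in Glut1-TG hearts (log2 ratio -0.04, adjusted p = 0.96). Npr1, the receptor of both peptides, and Pde9a were under the limit of signal.

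Acta1, the skeletal alpha-actin that the fetal and the loaded ventricle express beside its cardiac form, was the single tested member whose groups did not overlap. Its signal was 24525, 25858 and 27439 in WT and 30856, 30570 and 31878 in Glut1-TG hearts, which were above WT in 3 of 3 arrays. Among all genes tested, 8.67% lay above in this way, 8.77% lay below and 17.4% did either. The mean was 25941 ± 1459 (SD, n = 3) in WT and 31101 ± 688 (SD, n = 3) in the transgenic hearts. The log2 ratio was 0.26 (SE 0.08, unadjusted p = 0.0080, adjusted p = 0.24 from limma), a fold of 1.20 with a 95% confidence interval of 1.06 to 1.36. It ranked 430 of 13178 genes by p. The pooled SD within groups was 0.06 on the log2 scale, beside a median of 0.23 over all genes tested, whatever their signal. Spread was not compared with that of genes of like signal.

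The size and call of the Acta1 difference moved with the scaling of the arrays. The log2 ratio was 0.37 after quantile normalization (adjusted p = 0.067) and 0.43 with arrays centred on the cardiomyocyte markers (adjusted p = 0.044), a setting that moves all genes up by 0.16. The adjusted p ran from 0.35 to 0.44 without any 1 array. Acta1 is also a transcript of skeletal muscle. The 14 skeletal muscle markers, such as the fast myosins Myh1, Myh2 and Myh4, had a summed signal of 2376 to 2485 in WT and 2201 to 2436 in Glut1-TG hearts, and 8 of the 14 were under the limit of signal. Of the 6 tested 0 passed and 4 were above 0, and their median log2 ratio was 0.26, close in size to that of Acta1. Mybpc2, a fast myosin-binding protein, had -0.51 and Mylpf, a fast skeletal light chain, had -0.38 (adjusted p = 0.42 and 0.77). The calcium pump Atp2a1, the calcium buffer Pvalb and the myogenic factor Myod1 had 0.30, 0.32 and 0.46 (adjusted p = 0.63, 0.79 and 0.65). The myosin Myh8 had 0.21 (adjusted p = 0.90). All 6 were named after their values were seen. The part of skeletal muscle RNA in the Acta1 values was not tested. The closely related actins Actc1 and Acta2 share much of its coding sequence, and whether the Acta1 probe set reads them was not tested.

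Ankrd1, a cardiac ankyrin repeat protein of the sarcomere and nucleus that is induced by stretch, had 2 probe sets. The brighter had 30668, 30226 and 32916 in WT and 32437, 33276 and 36691 in Glut1-TG hearts, and the groups overlapped. Its mean was 31270 ± 1442 (SD, n = 3) in WT and 34135 ± 2253 (SD, n = 3) in the transgenic hearts, with a log2 ratio of 0.13 (SE 0.08, adjusted p = 0.62) and a fold between 0.96 and 1.24 at 95% confidence. The log2 ratio was 0.24 after quantile normalization (adjusted p = 0.30), 0.29 with arrays centred on the cardiomyocyte markers (adjusted p = 0.15) and 0.07 without Glut1-TG replicate 3 (adjusted p = 0.80). The second had 27252, 27022 and 26936 in WT and 29963, 28782 and 32628 in Glut1-TG hearts, which were higher in 3 of 3 arrays (log2 ratio 0.17, SE 0.09, adjusted p = 0.63 over 34945 probe sets). Without overlap, 7.8% of those probe sets lay above, 6.57% below and 14.4% either way; of the 19 read here, those of Acta1 and this one lay above, and 1 of Sln and 1 of Nr2f2 below. As the member of highest mean signal, Ankrd1 was compared with every other gene over the 6 arrays. Tmem80, Lrif1 and Pank2 had the highest Pearson correlation of log2 signal with it, each 0.97, and 55 genes had a correlation over 0.9, so that this measure singles out no gene at 6 arrays. Acta1 had a correlation of 0.82 with Ankrd1 over the same 6 arrays.

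Rcan1, an inhibitor of the phosphatase calcineurin whose short isoform is switched on by calcineurin and NFAT, is read as a gauge of that pathway. Its brighter probe set had 4463, 4587 and 3790 in WT and 4152, 2550 and 5013 in Glut1-TG hearts. Glut1-TG hearts held both the lowest and the highest value. The mean was 4280 ± 429 (SD, n = 3) in WT and 3905 ± 1250 (SD, n = 3) in the transgenic hearts, a log2 ratio of -0.18 (SE 0.21, adjusted p = 0.79) and a fold between 0.64 and 1.22 at 95% confidence. Without Glut1-TG replicate 2 the log2 ratio was 0.10. The second probe set had a log2 ratio of 0.02 (SE 0.19), with 1228 in Glut1-TG replicate 2 and 1636 to 2220 in the other 5 arrays. The names of both probe sets mark them as reading several transcripts of the gene, and the 2 isoforms could not be told apart.

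Of 15 genes of calcineurin and NFAT signalling outside the set, 14 were tested, 0 rose and 0 fell, with a median log2 ratio of -0.02. Ppp3cb, a catalytic subunit of calcineurin, had 2947, 3107 and 3200 in WT and 2374, 2769 and 2675 in Glut1-TG hearts (log2 ratio -0.25, SE 0.09, adjusted p = 0.37). Its groups did not overlap, which held for 17.4% of all genes tested. Rcan2, the paralogue of Rcan1, had a log2 ratio of -0.21 (SE 0.09, adjusted p = 0.44). Of 25 tested genes of hypertrophic signalling (kinases, receptors, channels, G proteins and histone deacetylases), 0 passed. The lowest p belonged to Prkca, a protein kinase C (0.67, SE 0.21, adjusted p = 0.25), and Il6st, the gp130 receptor subunit (-0.39, SE 0.13, adjusted p = 0.33).

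Beyond the set, 30 other genes of the fetal and load-induced program were tested, and 1 rose and 0 fell, with a median log2 ratio of -0.09, which was 0.03 after quantile normalization. Ccn1, a secreted matrix protein of the CCN family that is induced by stretch, rose from 2216 ± 165 (SD, n = 3) to 3509 ± 400 (SD, n = 3). Its log2 ratio was 0.66 (SE 0.11, adjusted p = 0.027), higher in 3 of 3 arrays. Leaving out 1 WT array, whichever it was, ended that call (adjusted p = 0.062 to 0.12), as it did without Glut1-TG replicates 2 and 3 (0.070 and 0.091). Csrp3, the muscle LIM protein of the Z-disc, had signals of 34512, 32509 and 34304 in WT and 28636, 27146 and 26589 in Glut1-TG hearts (log2 ratio -0.30, SE 0.08, adjusted p = 0.16). Myh7, the beta-myosin heavy chain of the fetal ventricle and named here after its values were seen, had 5776, 17407 and 9576 in WT and 6429, 7069 and 23530 in Glut1-TG hearts (log2 ratio 0.05, SE 0.49, adjusted p = 0.98). Its arrays differed more within each group than the group means did.

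**Figure D2:**
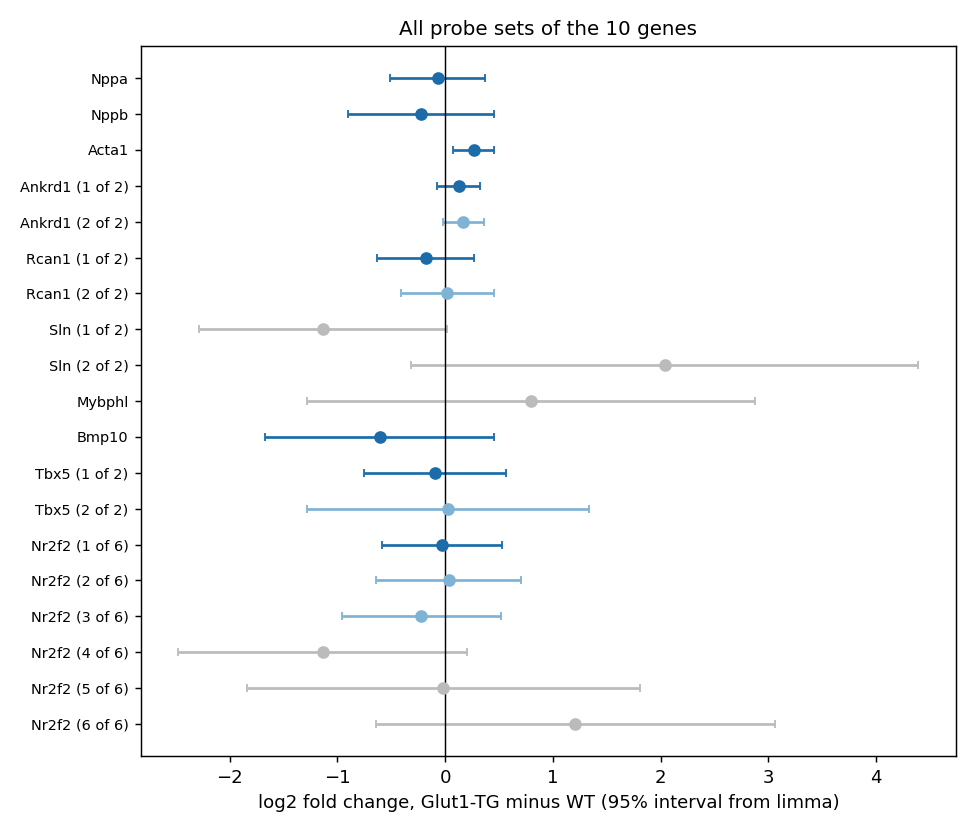
Horizontally, the log2 fold change of Glut1-TG over WT with its 95% interval from limma for each of the 19 probe sets of the 10 genes, from the brightest to the dimmest within a gene. Dark blue marks the probe set used for the gene, light blue other probe sets over the limit of signal and grey those under it; the interval of Acta1 alone excludes 0, without adjustment, and the 5 widest belong to probe sets under that limit.

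Of the atrial members, Sln and Mybphl were dim in these ventricles and Bmp10 lay just over the limit. Sln encodes sarcolipin, a short peptide that restrains the calcium pump SERCA and is abundant in atrial and slow skeletal muscle. Its first probe set had 117, 116 and 114 in WT and 65.3, 56.9 and 39.4 in Glut1-TG hearts, each Glut1-TG value being the lower (log2 ratio -1.13, SE 0.52, adjusted p = 0.59 over all probe sets). Its second had 9.9, 50.9 and 18 in WT and 76.5, 386 and 21.3 in Glut1-TG hearts, with the value of Glut1-TG replicate 2 far above the rest. The second had a log2 ratio of 2.04 (SE 1.06, adjusted p = 0.64). The 2 probe sets differed in sign, and since neither was shown to exceed background, these ratios are not read as the size of a change of Sln.

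Mybphl, a myosin-binding protein of atrial muscle and the conduction system, was read by 1 probe set. It had 23.6, 60.6 and 180 in WT and 29.1, 244 and 189 in Glut1-TG hearts (log2 ratio 0.79, SE 0.94, adjusted p = 0.86 over all probe sets). The arrays of each group differed several-fold among themselves, and the groups overlapped. Bmp10, a ligand of the bone morphogenetic protein family that the adult right atrium secretes, had 150, 111 and 257 in WT and 69.5, 119 and 145 in Glut1-TG hearts, with means of 172 ± 75.4 and 111 ± 38.4 (SD, n = 3 each). The log2 ratio was -0.61 (SE 0.48, adjusted p = 0.68), a fold between 0.31 and 1.38 at 95% confidence. It was negative in all 15 alternative settings in which Bmp10 was tested, from -0.88 to -0.30. The Glut1-TG mean lay under the limit of 115, and Bmp10 passed that limit through its WT arrays. Without WT replicate 3, its highest array, and under the filter keeping 40%, it was not tested. The constant sign is therefore not read as support for a change.

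Outside the set, 18 BMP ligands, receptors, SMADs and Id targets, with the Z-disc gene Tcap among them, were tested. Of these 0 passed, with a median log2 ratio of 0.06. Bmpr1a, a type I receptor, had 2314, 2060 and 1932 in WT and 2908, 2372 and 2499 in Glut1-TG hearts, higher in 3 of 3 arrays (log2 ratio 0.30, SE 0.11, adjusted p = 0.35). Bmp7 had a log2 ratio of 0.80 (SE 0.36, adjusted p = 0.44). Among 7 tested relatives of sarcolipin and SERCA genes 0 passed; Casq1, the calsequestrin of fast skeletal muscle, had 2051, 2800 and 1496 in WT and 3684, 3749 and 3706 in Glut1-TG hearts (log2 ratio 0.86, SE 0.18, adjusted p = 0.086). Hax1, a partner of phospholamban, had a log2 ratio of -0.50 (SE 0.12, adjusted p = 0.13).

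Tbx5, a T-box factor that activates Nppa and is needed for atrial identity and conduction, had 2 probe sets over the limit. The brighter had 257, 464 and 272 in WT and 385, 296 and 234 in Glut1-TG hearts (log2 ratio -0.09, SE 0.30, adjusted p = 0.94, fold between 0.59 and 1.49 at 95% confidence). The second had 399, 125 and 413 in WT and 147, 684 and 216 in Glut1-TG hearts (log2 ratio 0.02, SE 0.59). The array that was highest by one probe set was the lowest in its group by the other among the WT hearts. The second became the brighter, and was used, without Glut1-TG replicate 1 (log2 ratio 0.49) and without WT replicate 2 (-0.54). The sign also turned without Glut1-TG replicate 3 (0.08).

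Nr2f2, the orphan nuclear receptor COUP-TFII that sets atrial identity in cardiomyocytes and venous identity in endothelium, had 6 probe sets. The brightest had 788, 531 and 528 in WT and 814, 420 and 609 in Glut1-TG hearts. The means were 616 ± 149 and 614 ± 197 (SD, n = 3 each), with a log2 ratio of -0.03 (SE 0.25, adjusted p = 0.98) and a fold between 0.66 and 1.45 at 95% confidence. The log2 ratios of the other 2 over the limit were 0.03 and -0.22. Of the 3 dim ones, one had 112, 105 and 97.6 in WT and 37.8, 30.9 and 92.1 in Glut1-TG hearts, without overlap (-1.14, SE 0.60, adjusted p = 0.65 over all probe sets), and the others had -0.02 and 1.21. The venous and lymphatic endothelial markers, cells that express Nr2f2, had a summed signal of 5535 to 5924 in WT and 5542 to 5821 in Glut1-TG hearts, and 0 of 8 tested passed.

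The other regulators of cardiac muscle genes held 1 call among 26 tested, with 0 higher and a median log2 ratio of -0.02. Hopx, a homeodomain-only protein that restrains serum response factor, fell from 22514 ± 2408 (SD, n = 3) to 12655 ± 1747 (SD, n = 3), a log2 ratio of -0.83 (SE 0.12, adjusted p = 0.010), lower in 3 of 3 arrays. It did not pass without WT replicate 1 or 3 (adjusted p = 0.058 and 0.061). Gata6, a zinc finger factor that binds GATA motifs, had a log2 ratio of -0.43 (SE 0.11, adjusted p = 0.14). Srf, which binds the CArG box, Gata4 and Nkx2-5, chosen after their values were seen, had 0.26, 0.10 and -0.02 (adjusted p = 0.35, 0.83 and 0.95).

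Myl4, an atrial myosin light chain, rose in Glut1-TG hearts, while no tested atrial member passed. Myl7, the other atrial light chain, passed the limit of signal through its Glut1-TG arrays alone, and its WT signals were not shown to exceed background. Myl7 had 26.5, 90.5 and 14.2 in WT and 378, 713 and 315 in Glut1-TG hearts, and Myl4 had 400, 278 and 430 in WT and 1036, 1697 and 1038 in Glut1-TG hearts. Each group was well apart from the other, and Glut1-TG replicate 2 was the highest for both. Myl4 had a log2 ratio of 1.75 (SE 0.23, adjusted p = 0.0085) and the fit gave Myl7 3.76 (SE 0.68, adjusted p = 0.041), a size that rests on those WT signals and was 2.48 with an offset of 50 added to every signal. The call of Myl7 ended without WT replicate 1 or 3 (adjusted p = 0.14 and 0.091). When 1 Glut1-TG array was left out, whichever it was, Myl7 fell under the limit and was not tested. With the mean of all probe sets of a gene, neither passed (Myl4 1.09, adjusted p = 0.10, and Myl7 adjusted p = 0.057). The difference between these genes and the members was not tested.

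**Figure D3:**
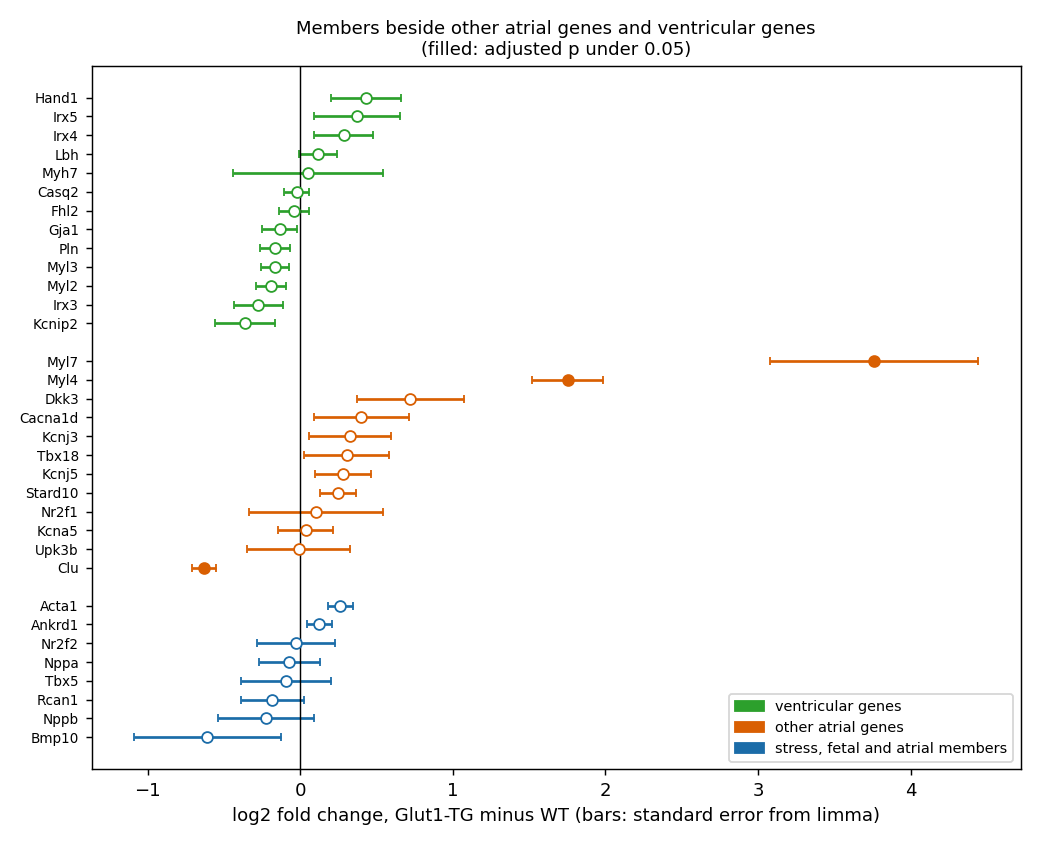
Horizontally, the log2 fold change of Glut1-TG over WT with the SE from limma for the 8 tested members (blue), 12 other atrial genes (orange) and 13 ventricular genes (green); filled points passed at an adjusted p under 0.05. Myl4 passed upward and Clu downward, and no member or ventricular gene passed. Myl7 also passed upward, but it reached the limit of signal through its Glut1-TG arrays alone.

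Of 12 tested atrial genes outside the set, 2 passed upward, Myl7 being one of them, and 1 fell. Over all genes tested 0.258% were higher and 0.599% lower. Their median log2 ratio was 0.29 for the 12 atrial genes, beside 0.02 over all genes tested. The list was chosen with earlier results of these data known, so these counts are a description only. Clu, the secreted chaperone clusterin, fell from 12182 ± 721 to 7849 ± 336 (SD, n = 3 each), a log2 ratio of -0.63 (SE 0.08, adjusted p = 0.0066), lower in 3 of 3 arrays. It had an adjusted p of 0.086 with arrays centred on the cardiomyocyte markers and 0.12 with the mean of probe sets. Ccn1 also did not pass with that mean (0.075). Myl4, Myl7, Clu, Hopx and Ccn1 all lost their call by limma without the intensity trend (adjusted p = 0.15 to 0.25) and under the methods' t-test when its p was adjusted likewise (0.20 to 0.35). The 9 atrial cardiomyocyte markers, which leave out Clu, had a summed signal of 5175 to 5745 in WT and 6613 to 8645 in Glut1-TG hearts. The 16 measured atrial genes, Clu among them, summed to 17862.5 to 19692 in WT and 15509.7 to 17364.7 in Glut1-TG hearts, lower without overlap. The 2 sums thus moved in opposite directions. Of the 8 markers tested, Myl4 passed, higher, and so did Myl7, which reached the limit of signal through its Glut1-TG arrays alone. No list gene was listed at a signal of 0 on any array. In whole ventricle RNA, fewer cells of a type and less RNA per cell cannot be told apart, and neither can a few atrial cells and a low level in many. The part of atrial tissue in these values was not tested. Of 13 tested ventricular genes 0 passed, with a median of -0.04, which was 0.07 after quantile normalization, and Myl2, the ventricular myosin light chain, had a log2 ratio of -0.19 (SE 0.10, adjusted p = 0.52). Hand1, a basic helix-loop-helix factor, had 0.43 (SE 0.23, adjusted p = 0.52).

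Hearts of 1 group differed from each other in Nppa, Nppb and Rcan1 more than the groups did. The coefficient of variation of Nppa was 9.69% in WT and 36.0% in Glut1-TG hearts, that of Nppb 26.9% and 42.8%, and that of Rcan1 10.0% and 32.0%. Among the Glut1-TG hearts the highest signal was 1.92 times the lowest for Nppa, 2.58 times for Nppb and 1.97 times for Rcan1, where the median over all genes tested was 1.34. For Acta1 and Ankrd1 it was 1.04 and 1.13. That median covers genes of all signals, and these ratios were not compared with those of genes of like signal. With 3 arrays a group the difference in spread between WT and Glut1-TG hearts was not tested.

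Nppb, Rcan1 and Nr2f2, picked out after their values were seen, shared their lowest array. Glut1-TG replicate 2 lay below its group mean by a log2 value of -0.83 for Nppb, -0.56 for Rcan1 and -0.50 for Nr2f2. Glut1-TG replicate 1 lay above it by 0.54, 0.14 and 0.46. WT replicate 2 lay above its group mean for Rcan1 (0.11) and below it for Nppb (-0.06) and Nr2f2 (-0.19). The other probe sets of Nr2f2 over the limit did not share this order: one had 171, 250 and 296 in Glut1-TG hearts, lowest in replicate 1, and the other 192, 161 and 129, lowest in replicate 3. Over the 6 arrays the Pearson correlation with Nppb was 0.93 for Nr2f2 (Spearman 0.94) and 0.87 for Rcan1 (Spearman 0.54), that between Rcan1 and Nr2f2 was 0.64 and that between Nppa and Nppb 0.24. These are descriptions over 6 arrays that share their scaling, out of 28 pairs, and no order of the pairs is read from them.

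**Figure D4:**
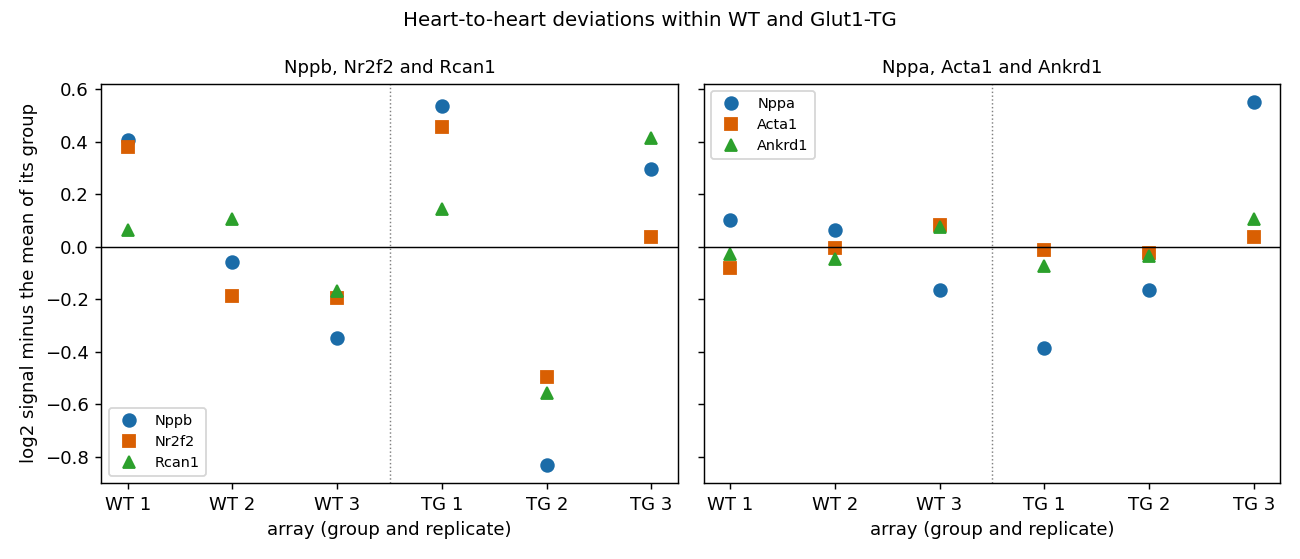
Log2 signal minus the mean of its group (vertical axis) in each of 6 arrays (WT 1 to 3, and TG 1 to 3 for Glut1-TG) for Nppb, Nr2f2 and Rcan1 (left) and Nppa, Acta1 and Ankrd1 (right). On the left all 3 genes are lowest in Glut1-TG replicate 2, at -0.83, -0.50 and -0.56; on the right Acta1 and Ankrd1 stay within 0.11 of their means while Nppa reaches 0.55 in Glut1-TG replicate 3.

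The arrays share a trimmed mean because they were scaled to it, and their median signals were 171 to 187 in 5 of them and 213 in Glut1-TG replicate 1. The highest correlation of log2 signal with any other array was 0.90 for Glut1-TG replicate 1. For the other 5 it was 0.91 to 0.92. Mouse Slc2a1, whose probe set need not read the human transgene, had 527, 409 and 533 in WT and 851, 753 and 757 in Glut1-TG hearts (log2 ratio 0.69, SE 0.16, adjusted p = 0.11). Over the 13 lists of cell type markers, Myl4 passed, and so did Myl7, which reached the limit of signal through its Glut1-TG arrays alone. No other marker passed, where 0.258% of all genes tested were higher and 0.599% lower. The lymphocyte markers had a summed signal of 1330 to 1429 in WT and 1721 to 1811 in Glut1-TG hearts, and 0 of the 4 tested passed. The 14 cardiomyocyte markers were all tested and all below 0. After adjustment 0 passed, 4 were lower at an unadjusted limma p under 0.05, and the median log2 ratio was -0.18, which was 0.00 after quantile normalization. They had a summed signal of 476566 to 579246 in WT and 453852 to 477618 in Glut1-TG hearts. Their part in the members' values was not tested beyond the centring given above.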

How the data were processed

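Left ventricles of 3 WT and 3 Glut1-TG mice were read on Affymetrix arrays. Per the labels, RNA was extracted with Trizol and labelled as cRNA with biotin, and GCOS is the tool named in the submitters' processing notes (version not given in the sources used here). The deposited values are signal intensities, 1 per probe set, scaled to a trimmed mean of 500. Control probe sets (64 of 45101) were dropped, and the 48 values under 1 were set to 1 before log2. Symbols came from the platform annotation; 34945 probe sets had 1 symbol, and the symbols of all 10 members are current in RefSeq (GRCm38.p6). Each gene was read by its brightest probe set, the dimmest 40% of probe sets were dropped, and 13178 genes were fitted with limma 3.58.1 (R 4.3.3, lmFit and eBayes with trend). All probe sets were also fitted without a filter. The limma procedure was tested on simulated data.

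The number of arrays limited the precision. Each array is 1 sample by its label; that each is a separate mouse is the plain reading. The members, the 9 gene lists and the 13 marker lists were chosen with earlier results of these data known. Named were all members, from each gene list up to 4 genes that passed or, where fewer than 2 passed, the 2 of lowest p, and the 3 genes most like the brightest member; others are marked. Same-numbered WT and Glut1-TG arrays do not share a mouse, and their deviations from the group means correlated by 0.08, -0.03 and 0.05. Alternatives were quantile normalization, an offset of 50, no filter, a filter keeping 40%, the mean of probe sets, leaving out each array, the methods' t-test, unadjusted p, eBayes without trend, the replicate number as a block, and centring on cardiomyocyte markers.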

Additional observations from a re-analysis of the deposited data

How the results depend on the processing

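The count of members lower in Glut1-TG hearts stayed at 0 in all 17 alternatives, and that of members higher was 0 in 15 and 1 (Acta1) by unadjusted limma p and with arrays centred on cardiomyocyte markers. Over all genes 34 were higher and 79 lower. These counts were 9 and 37 with the mean of probe sets, 2 and 2 without the intensity trend, 423 and 349 by the methods' t-test at the study's thresholds, 1 and 0 by that t-test once adjusted, 721 and 765 by unadjusted p, and 59 and 30 with arrays centred on cardiomyocyte markers. Leaving out 1 array gave 12 to 32 higher and 30 to 63 lower. The replicate numbers do not pair mice; with the replicate block 23 were higher and 46 lower, and 0 members passed either way.

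Centring on cardiomyocyte markers turned the log2 ratio of Nppa to 0.093, of Tbx5 to 0.070 and of Nr2f2 to 0.13. Leaving out 1 array gave -0.35 to 0.12 for Nppa, -0.49 to 0.19 for Nppb, -0.39 to 0.10 for Rcan1, -0.54 to 0.49 for Tbx5 and -0.26 to 0.22 for Nr2f2. Nppa was 0.01 without Glut1-TG replicate 2, Tbx5 0.08 without Glut1-TG replicate 3 and Nr2f2 0.16 without WT replicate 1. The cause was not tested. Acta1 and Ankrd1 kept their sign in all alternatives. Bmp10 kept its sign in the 15 that tested it, but it passed the limit of signal through its WT arrays. The alternatives for Myl4, Myl7, Clu, Hopx and Ccn1 were added after seeing the data. The number of arrays limits all intervals, and whether signals under 115 exceed background was not tested.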
